A study of Mus musculus with 6 samples.

Results

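The 29 genes described here encode the enzymes that make cholesterol and fatty acids and the SREBP machinery that controls them. They were taken by symbol from a table of FPKM, a level that divides a gene's fragments by its length and by the size of the library, that holds 54966 features, and all 29 were found. The libraries came from macrophages of wild-type mice, sorted from skeletal muscle for CD11b and F4/80 with little Ly6C, 3 days after injury with barium chloride, a chemical that kills muscle fibres and starts regeneration. There were 3 libraries from young and 3 from old mice, with no other treatment or allele in the labels. The deposited table is titled with the names R26 and Cx3Cr1, and the labels, which give the genotype as wild-type, do not say what these stand for. The labels state neither the ages in months nor the strain, and do not tie libraries to separate animals. P-values therefore cover only library-to-library spread, part of which may be technical.

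Cells make cholesterol from acetyl-CoA through mevalonate, isoprenoids, squalene and lanosterol, and they make fatty acids from the same acetyl-CoA through malonyl-CoA. SREBP transcription factors are held as precursors in the membrane of the endoplasmic reticulum. When sterols are scarce, the escort protein SCAP carries them to the Golgi for cleavage, and when sterols are plentiful, INSIG proteins retain SCAP and the target genes fall quiet. Macrophages that clear dead cells take up membrane cholesterol, and sterols are known to repress this programme while LXR receptors turn on export.

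No gene of this group differed between old and young libraries past the threshold. Of the 29, 24 had a mean of at least 1 FPKM and entered a limma test across 11108 genes on log2(FPKM + 1). By limma, 0 of the 24 passed an adjusted p of 0.05 (Benjamini-Hochberg over all tested genes), beside 0.036% of all tested genes. Limma voom on recovered fragments also called 0 of them. At an unadjusted p under 0.05 limma gave 0 higher and 2 lower members, Pmvk and Mvd, beside 15.0% of all tested genes, 8.84% in the higher and 6.18% in the lower direction. Changes ran from -0.36 to 0.22 on the log2 scale, with a median of 0.02 against 0.01 over all tested genes, and 13 were positive and 11 negative. The young and old libraries did not overlap for 4 of the 24, 2 higher and 2 lower in old, beside 20.9% of all tested genes. These counts lay near or below the background and are no result about the genes. Because whole sorted samples were sequenced, fewer cells expressing a gene and less RNA per cell cannot be told apart.

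The promoters show what many of these genes share in sequence. RefSeq windows on GRCm38.p6, from 250 bases before to 50 after each annotated start, were found for 23 members (31 windows) and searched on both strands. CCAAT, the core of the NF-Y site, occurred in 67.7% of member windows and 37.4% of all 32851 windows. GGGCGG, the Sp1 box, occurred in 74.2% and 35.7%, and the E-box CACGTG in 19.4% and 7.2%. A form of the sterol regulatory element bound by SREBP, TCACNCCAC, occurred in 1 member window, that of Hmgcs1, and in 1.2% of all windows. The 32851 windows were not limited to genes expressed here or matched for base content, so these shares do not set the members apart from other expressed genes. NF-Y and Sp1 are known partners of SREBP at sterol gene promoters. A match here is a description and not a bound site, no search excluded overlap with another motif, and a missing match says only that those letters are not in the window.

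Promoter stretches of 4 genes are shown so that these elements can be read in place. Hmgcs1 holds the TCACNCCAC match, and Insig1 holds an E-box and is the most abundant control gene. Mvk and Mvd are enzymes of the same arm whose libraries separated in opposite directions. That separation is no result about them, as said above, and their promoters are not contrasted. Each stretch runs 5′ to 3′ on the strand of its gene, lies before the start and outside GENCODE exons, and has the searched motifs, in either orientation, in capitals. On GRCm38.p6 they are chr13:119690101-119690350 (plus strand) for Hmgcs1, chr5:114444061-114444268 (plus) for Mvk, chr8:122443423-122443672 (minus) for Mvd and chr5:28071162-28071362 (plus) for Insig1.
Hmgcs1: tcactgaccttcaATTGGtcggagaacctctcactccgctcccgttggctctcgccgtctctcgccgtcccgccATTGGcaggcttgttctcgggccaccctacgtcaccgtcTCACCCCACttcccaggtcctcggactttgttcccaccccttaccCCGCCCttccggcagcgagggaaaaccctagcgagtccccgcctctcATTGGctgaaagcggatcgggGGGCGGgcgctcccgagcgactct
Mvk: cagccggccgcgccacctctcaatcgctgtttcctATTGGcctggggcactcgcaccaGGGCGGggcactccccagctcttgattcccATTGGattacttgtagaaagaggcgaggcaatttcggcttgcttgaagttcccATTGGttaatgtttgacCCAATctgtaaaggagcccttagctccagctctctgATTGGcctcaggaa
Mvd: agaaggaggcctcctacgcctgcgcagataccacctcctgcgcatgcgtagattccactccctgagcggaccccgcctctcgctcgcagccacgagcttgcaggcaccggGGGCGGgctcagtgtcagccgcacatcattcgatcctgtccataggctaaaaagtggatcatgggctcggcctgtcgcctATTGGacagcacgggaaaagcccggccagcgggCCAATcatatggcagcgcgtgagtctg
Insig1: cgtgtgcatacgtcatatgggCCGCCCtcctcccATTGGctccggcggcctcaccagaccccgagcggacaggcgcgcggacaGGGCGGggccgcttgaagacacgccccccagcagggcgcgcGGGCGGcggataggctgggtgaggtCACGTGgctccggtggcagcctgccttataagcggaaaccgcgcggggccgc
The TCACCCCAC element of Hmgcs1 is centred at position -133 from the start and has ATTGG boxes, the reverse complement of CCAAT, on both sides. Mvk has 5 NF-Y boxes in its window and Mvd has 2. Such a box was found for 20 of the 23 members with a window, so it does not set these 2 promoters apart.

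**Figure D1:**
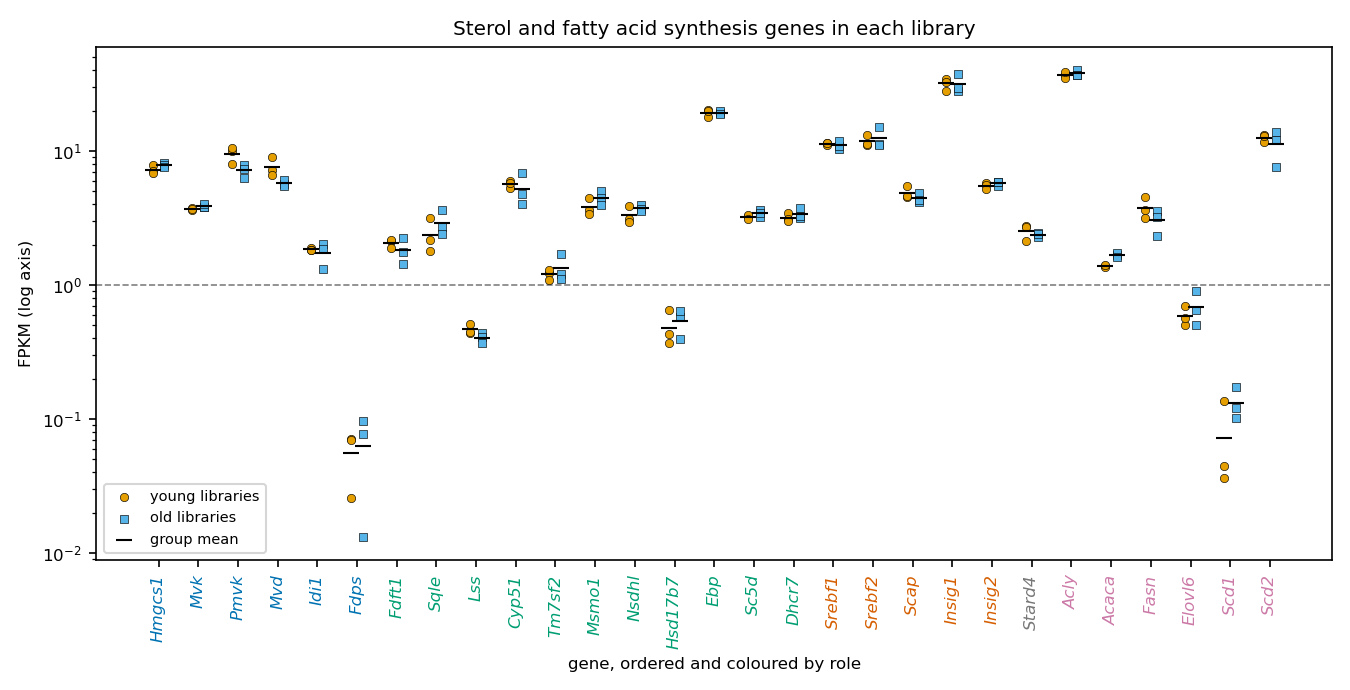
FPKM of the 29 genes in each of the 3 young (circles) and 3 old (squares) libraries on a log axis, with group means as black bars, the 1 FPKM minimum as a dashed line and gene names coloured by role. Acly and Insig1 are highest, Fdps and Scd1 are lowest, and the young and old points of most genes cover the same range.

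Levels per length spanned a wide range, as the plot of FPKM by gene shows. Acly, the ATP citrate lyase that supplies cytosolic acetyl-CoA, was highest at 37.0 ± 1.97 FPKM in young and 38.0 ± 1.71 in old (SD, n = 3 per group here and below). Next were Insig1 at 31.9 ± 3.29 and 31.6 ± 5.12 FPKM and Ebp, a sterol isomerase, at 19.2 ± 1.28 and 19.3 ± 0.434. Scd2, Srebf2 and Srebf1 followed with group means between 11.0 and 12.6 FPKM, and their order did not exceed the spread of Scd2 and Srebf2 between old libraries. The 5 members under a mean of 1 FPKM were Fdps, Scd1, Lss, Hsd17b7 and Elovl6.

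Depth behind these levels was read from recovered fragments, which are FPKM times exon length in units of a single fragment. Fdps, which makes farnesyl diphosphate, held 1 to 7 fragments per library (0.0133 to 0.0966 FPKM). Lss, which closes squalene oxide into lanosterol, held 73 to 102 fragments over an exon length of 10787 bases. Both enzymes act in steps that cholesterol synthesis cannot bypass. No other annotated transcript matched Fdps at 95% identity over 200 bases, and whether fragments of Fdps were lost in counting was not tested.

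The mevalonate steps held the only members with an unadjusted p under 0.05. Pmvk encodes phosphomevalonate kinase (chromosome 3, 89454541 to 89469013). Its values were 8.02, 10.1 and 10.5 FPKM in the young libraries and 7.80, 7.39 and 6.27 in the old ones, here and below in the order of their replicate numbers. The groups did not overlap, but young replicate 1 lay close to old replicate 1. The log2 change was -0.36 (SE 0.117, limma unadjusted p = 0.0171, adjusted p = 0.238). Mvd encodes the decarboxylase that follows it and yields isopentenyl diphosphate (chromosome 8, 122433601 to 122443422). Mvd stood at 7.21, 6.65 and 8.94 FPKM in young and 5.69, 6.03 and 5.52 in old, so every old library lay below every young one. Its log2 change was -0.34 (SE 0.105, limma unadjusted p = 0.0138, adjusted p = 0.226). Behind these values stood 197 to 306 recovered fragments per library for Pmvk and 188 to 283 for Mvd. Neither passed, and each was negative under every alternative setting tried, with limma adjusted p from 0.0883 to 0.522 for Pmvk and from 0.165 to 0.488 for Mvd.

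Of the other tested mevalonate enzymes, Hmgcs1 and Mvk had positive changes and Idi1 a negative one. Hmgcs1, the synthase that makes HMG-CoA, had 7.81, 7.05 and 6.83 FPKM in young and 8.17, 7.83 and 7.60 in old. The groups overlapped through young replicate 1, and the log2 change was 0.11 (95% interval -0.06 to 0.28, limma adjusted p = 0.527). Mvk, mevalonate kinase, had 3.62, 3.73 and 3.67 FPKM in young and 3.83, 3.84 and 4.0 in old. Every old library lay above every young one, by a margin that did not pass (0.06, SE 0.064, limma adjusted p = 0.681). Idi1, which isomerises isopentenyl diphosphate, ranged from 1.81 to 1.88 FPKM in young and from 1.32 to 2.01 in old (-0.07, limma adjusted p = 0.831). The processed pseudogene Gm13502 matches 684 bases of Idi1 at 100% identity, so fragments may be divided between these copies. The median change of the 5 tested mevalonate genes was -0.07. It was 0.05 without old replicate 3, -0.10 without old replicate 2 and -0.14 without old replicate 1.

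**Figure D2:**
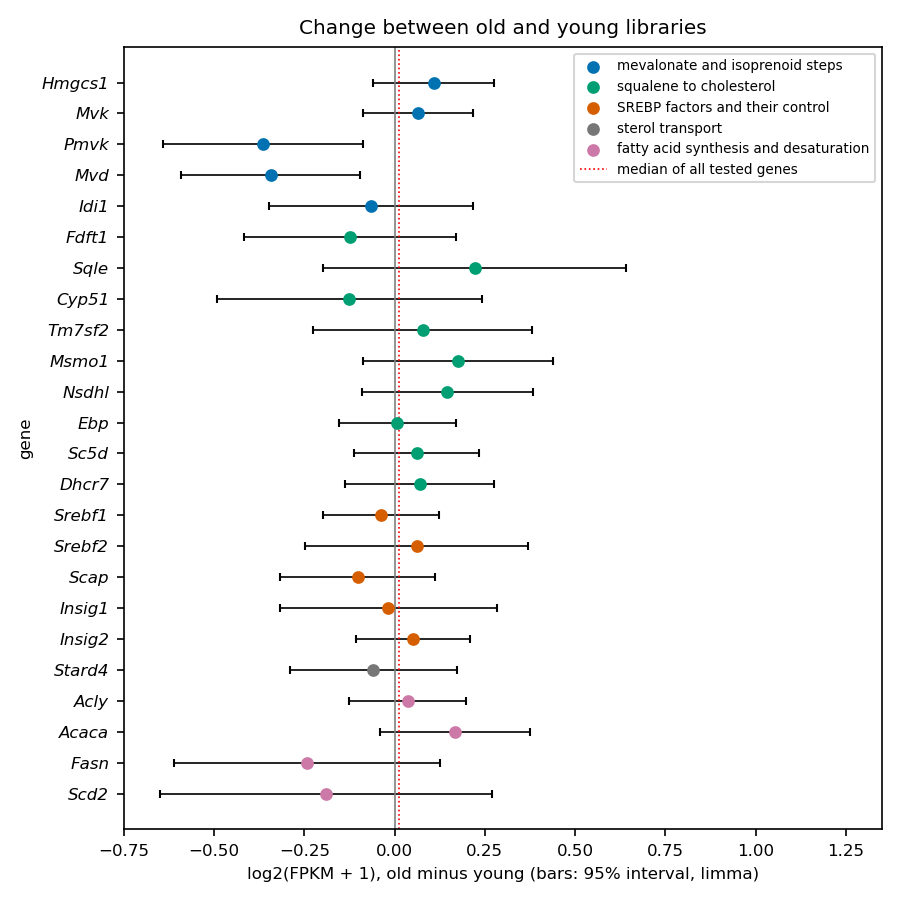
Difference in log2(FPKM + 1) between old and young libraries for the 24 tested genes, as points coloured by role with 95% intervals from limma, and the median of all tested genes (0.01) as a dotted line. Only the intervals of Pmvk and Mvd lie wholly on one side of 0, before adjustment for the 11108 genes tested.

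The genes from squalene to cholesterol had more positive than negative changes, and none passed. Of 9 tested members 7 were positive and 2 negative, with a median of 0.07, and the groups overlapped for all 9. Sqle encodes squalene epoxidase, a rate-limiting step. It had 3.15, 1.79 and 2.17 FPKM in young and 3.61, 2.72 and 2.39 in old. Young replicate 1 and old replicate 1 were the highest libraries, and the change was 0.22 (SE 0.177, limma adjusted p = 0.610), the largest positive value among the 24 with all 6 libraries. It was 0.10 without young replicate 2 or old replicate 1, where Acaca, Msmo1 and Nsdhl exceeded it, and 0.38 without young replicate 1. Tm7sf2 also exceeded Sqle without young replicate 2. Cyp51, the lanosterol demethylase, had 5.93, 5.28 and 5.80 FPKM in young and 6.80, 4.79 and 4.05 in old. The old libraries lay on both sides of the young ones, and the change was -0.12 (SE 0.155, limma adjusted p = 0.750). Msmo1, the methylsterol oxidase, had 4.44, 3.65 and 3.41 FPKM in young and 4.99, 4.46 and 3.92 in old (0.18, limma adjusted p = 0.513). Stretches of 200 to 203 bases of Msmo1 match several other transcripts at 95% identity or more. Nsdhl, a dehydrogenase of the same demethylation, had 3.31 ± 0.503 and 3.75 ± 0.207 FPKM (0.15, limma adjusted p = 0.548).

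The remaining late enzymes had changes close to 0 or values that are hard to assign. Dhcr7, which reduces 7-dehydrocholesterol to cholesterol, had 3.18 ± 0.251 FPKM in young and 3.39 ± 0.309 in old (95% interval of the log2 change -0.14 to 0.28). Sc5d, the desaturase before it, had 3.24 ± 0.113 and 3.43 ± 0.200 FPKM, and Tm7sf2, a sterol reductase, had 1.20 ± 0.106 and 1.33 ± 0.314. The interval for Ebp was -0.15 to 0.17. Fdft1, squalene synthase, had 2.05 ± 0.152 and 1.82 ± 0.406 FPKM (-0.12, limma adjusted p = 0.683), or -0.03 without old replicate 3 and -0.23 without old replicate 1. Its transcript shares 774 bases at 100% identity with an annotated transcript of Ctsb, a cathepsin gene on the same chromosome at 2428 to 3496 FPKM, so the value of Fdft1 is uncertain. Among genes under the minimum, Lss had 0.511, 0.441 and 0.446 FPKM in young and 0.436, 0.409 and 0.369 in old, with no overlap. Hsd17b7, a sterol ketone reductase, ranged from 0.368 to 0.646 FPKM over the 6 libraries. Without the minimum, limma gave an adjusted p of 0.754 for Lss and 0.871 for Hsd17b7.

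A single old library stood apart in this branch. Old replicate 1 was the highest of all 6 libraries for 8 of the 9 tested genes from squalene to cholesterol, against 20.0% of all tested genes. It was highest for 13 of the 24 tested members. Among the young libraries, replicate 1 was the highest for 15 of them, against 37.9% of all tested genes. The genes from squalene to cholesterol lay at a median of 0.15 above their 6-library mean in old replicate 1, and at -0.03 and -0.06 in old replicates 2 and 3, on the log2 scale. In young replicates 1 to 3 the medians were 0.09, -0.06 and -0.10. Without old replicate 1 the median old-minus-young change of these 9 genes was 0.01, and that of Tm7sf2 was -0.03. Without young replicate 3 the median was 0.04, and without old replicate 2 it was 0.11. Old replicate 1 had 18742500 recovered fragments in all, within the 16540591 to 19397252 of the series. This pattern was noticed after the values were seen, and its source was not tested.

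**Figure D3:**
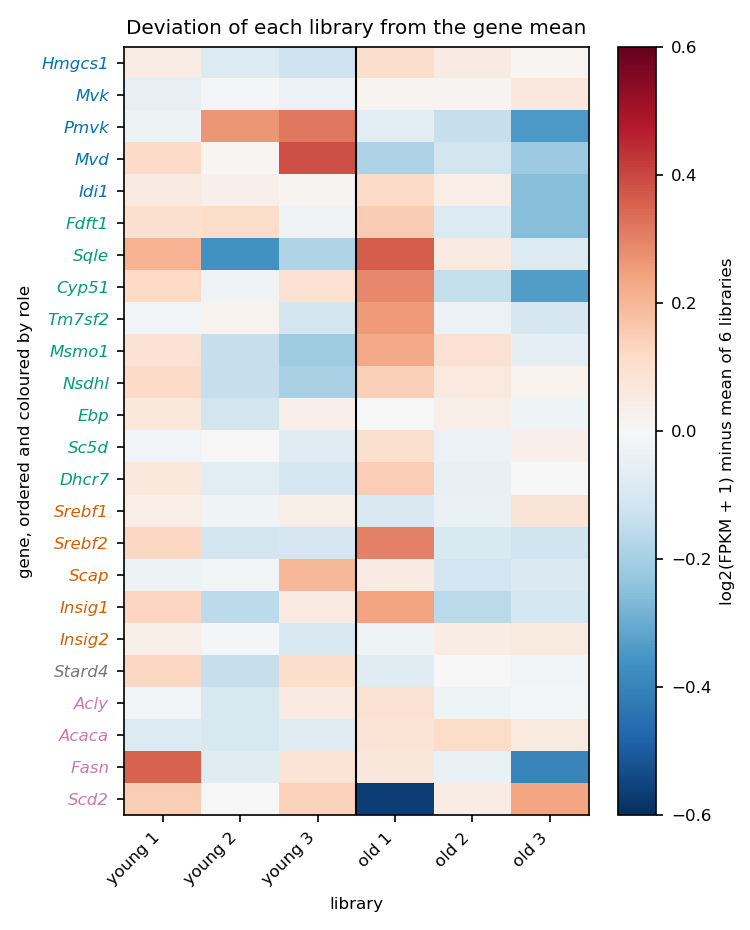
Difference of log2(FPKM + 1) in each library from the mean of the 6 libraries for the 24 tested genes, red above and blue below, with names coloured by role. The column of old replicate 1 is red for most genes from squalene to cholesterol and for Srebf2 and Insig1, and blue for Scd2.

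The SREBP factors and their control genes gave intervals that all included 0. Srebf1, which encodes the SREBP that favours fatty acid genes, had 11.5, 11.0 and 11.4 FPKM in young and 10.4, 10.8 and 11.8 in old (-0.04, 95% interval -0.20 to 0.12). Srebf2, which encodes the SREBP that favours sterol genes, had 13.2, 11.0 and 11.2 FPKM in young and 15.1, 11.2 and 11.0 in old. Replicate 1 was the highest library in each group, and the change was 0.06 (95% interval -0.25 to 0.37), or -0.07 without old replicate 1. Scap had 4.85 ± 0.534 and 4.45 ± 0.340 FPKM (-0.10, limma adjusted p = 0.649), or -0.03 without young replicate 3. Insig1, itself a target of SREBP and the retaining partner of SCAP, had 34.6, 28.2 and 32.8 FPKM in young and 37.5, 28.1 and 29.3 in old (-0.02, 95% interval -0.32 to 0.28). Insig2 had 5.52 ± 0.271 and 5.75 ± 0.211 FPKM (0.05, limma adjusted p = 0.761). These intervals do not show that the groups are alike, since differences up to their bounds are not excluded. Nor are the bounds a limit of detection: with 3 libraries per group the change of -0.36 for Pmvk did not pass.

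Paralog balance was compared by the log2 ratio of FPKM + 1 within each library, with exact two-sided permutation tests that cannot go below p = 0.1. Insig1 exceeded Insig2 by 2.33 ± 0.154 in young and 2.26 ± 0.263 in old (exact p = 0.8). The ratio of Srebf1 to Srebf2 was -0.05 ± 0.117 and -0.15 ± 0.308 (exact p = 0.8), and it was lowest in old replicate 1 at -0.50. The ratio of Scd1 to Scd2 was -3.66 ± 0.156 and -3.39 ± 0.466 (exact p = 0.7). Scd1 is so low that the added 1 FPKM sets the size of this ratio. The difference of 0.27 was 0.67 with a pseudocount of 0.1, and it was 0.006 without old replicate 1 and 0.45 without old replicate 3. Adjusted over the 3 ratios, every exact permutation p was 0.8.

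Stard4, which shuttles cholesterol between membranes, had 2.53 ± 0.345 FPKM in young and 2.38 ± 0.0924 in old (-0.06, limma adjusted p = 0.818). Its 3 old libraries all lay within the range of the young ones.

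Fatty acid synthesis genes had changes of both signs, and none passed. Acaca, which encodes the acetyl-CoA carboxylase that makes malonyl-CoA, lies on chromosome 11 (84129672 to 84401651). It had 1.39, 1.37 and 1.40 FPKM in young and 1.67, 1.73 and 1.63 in old, so every old library lay above every young one. The change was 0.17 (SE 0.088, limma adjusted p = 0.431), on a log2(FPKM + 1) scale that understates the change of a gene this low. It was positive under every alternative setting that fitted it (0.15 to 0.27, limma adjusted p from 0.160 to 0.649), with 0.26 for a pseudocount of 0.1 and 0.27 on recovered fragments. Behind it stood 392 to 439 recovered fragments in young and 508 to 511 in old. The processed pseudogene Gm5182 matches 6118 bases of Acaca at 99.2% identity and had 0.722 to 0.976 FPKM in young and 0.715 to 1.12 in old, so fragments may be divided between these copies. Fasn, the fatty acid synthase, had 4.55, 3.14 and 3.60 FPKM in young and 3.56, 3.23 and 2.31 in old. Those groups overlapped (-0.24, SE 0.156, limma adjusted p = 0.520). The change was -0.11 without old replicate 3, -0.13 without young replicate 1 and -0.34 without young replicate 2 or old replicate 1. The interval for Acly was -0.13 to 0.20.

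The desaturase paralogs differed widely in level. Scd2, the stearoyl-CoA desaturase of brain and many other tissues, had 13.0, 11.7 and 13.0 FPKM in young and 7.58, 12.1 and 14.0 in old. Old replicate 1 was the lowest of the 6 and old replicate 3 the highest, and the change of -0.19 (SE 0.194, limma adjusted p = 0.691) was 0.05 without old replicate 1. Scd1, the main desaturase of liver and fat, held 3 to 15 recovered fragments per library (0.0364 to 0.174 FPKM). The highest Scd1 value was in old replicate 1, the library in which Scd2 was lowest. The genes share a stretch of 623 bases at 95.5% identity, and whether fragments were divided between them was not tested. Elovl6, which lengthens palmitate, ranged from 0.499 to 0.698 FPKM in young and from 0.50 to 0.905 in old. Adipocytes make fatty acids in quantity, and their 8 markers were close to absent, with sums of 0.385 to 0.492 FPKM per library in young and 0.381 to 0.601 in old. The defining marker Lep was at 0 in all libraries.

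Other genes of the programme also gave changes that did not pass. Of 10 further SREBP targets of the sterol arm, 9 were tested and 0 passed in limma. Before adjustment, 3 lower and 0 higher had a limma p under 0.05, beside 6.18% and 8.84% of all tested genes. Changes were positive for 3 and negative for 6, with a median of -0.09. That direction turned without old replicate 3, where the median was 0.05 with 5 positive and 4 negative. The median was -0.17 without old replicate 2, -0.20 without old replicate 1 and -0.04 without young replicate 1. The smallest p belonged to Pcyt2, which makes the head group donor of phosphatidylethanolamine. It had 5.92 ± 0.579 FPKM in young and 4.84 ± 0.275 in old, with no overlap (-0.24, limma adjusted p = 0.257). Acat2, the cytosolic thiolase that makes acetoacetyl-CoA for the first step, had 2.65 ± 0.230 and 1.94 ± 0.494 FPKM (-0.33, limma adjusted p = 0.329). Lpin1, a phosphatidate phosphatase, had 3.74 ± 0.838 and 2.68 ± 0.454 FPKM (-0.36, limma adjusted p = 0.330).

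Of 13 further fatty acid synthesis genes, 8 were tested and 0 passed in limma, with a median of 0.05. Before adjustment, 1 lower and 0 higher had a limma p under 0.05, beside 6.18% and 8.84% of all tested genes. The median was 0.007 without young replicate 3 and -0.007 with TPM. Slc25a1, the carrier that brings citrate to the cytosol for Acly, had 17.6 ± 0.461 and 15.9 ± 0.307 FPKM with no overlap (-0.14, limma adjusted p = 0.317). Fads1, the delta-5 desaturase, had 18.8 ± 1.25 and 21.5 ± 2.53 FPKM (0.18, limma adjusted p = 0.448), and Acsl3, which activates fatty acids, had 3.55 ± 0.589 and 2.96 ± 0.221 (-0.20, limma adjusted p = 0.457). All 9 genes of SREBP cleavage and sterol-regulated degradation were tested, with 0 passing in limma, 0 at an unadjusted p under 0.05 and a median of 0.07, or 0.02 without young replicate 2 and 0.03 without old replicate 3 or with TPM. Erlin2, of the complex that helps degrade sterol-regulated proteins, had 12.7 ± 0.706 and 14.4 ± 0.972 FPKM (0.17, limma adjusted p = 0.345). The ubiquitin-conjugating enzyme gene Ube2g2 had 22.1 ± 0.923 and 19.7 ± 1.23 FPKM (-0.16, limma adjusted p = 0.350).

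**Figure D4:**
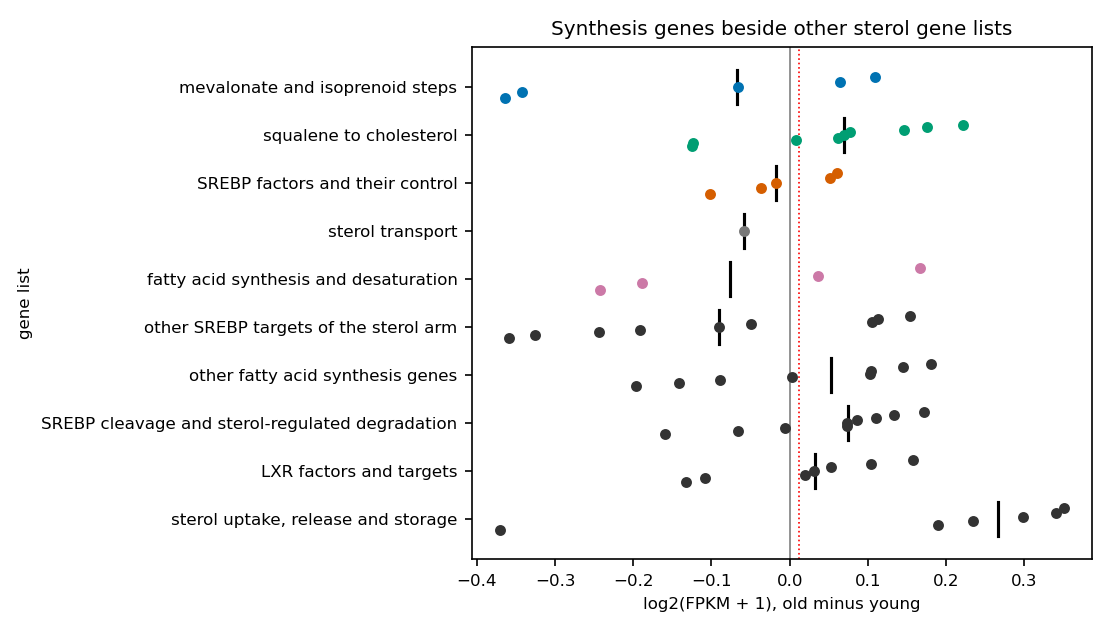
Difference in log2(FPKM + 1) between old and young libraries for each tested gene (points) in the 5 groups of synthesis and control genes and in 5 related lists, with list medians as black bars and the median of all tested genes (0.01) as a dotted line. Sterol uptake, release and storage has the highest median at 0.27, with Scarb1 alone on the negative side, while the tested synthesis genes lie on both sides of 0.

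The genes that handle incoming sterol had a higher median, as the plot of list medians shows, and none passed in limma. Before adjustment, 5 higher and 1 lower had a limma p under 0.05, beside 8.84% and 6.18% of all tested genes. Of 6 genes for sterol uptake, release and storage, 5 were positive and 1 negative in old, with a median of 0.27 against 0.02 for the 24 synthesis and control genes. The groups did not overlap for any of the 6, 5 higher and 1 lower, beside 12.3% of all tested genes in the higher and 8.59% in the lower direction. Npc1, which lets cholesterol out of lysosomes, had 36.0, 32.7 and 33.1 FPKM in young and 42.5, 40.9 and 47.3 in old (0.35, SE 0.078, limma adjusted p = 0.169). Soat1, which esterifies cholesterol for storage, had 25.7, 26.9 and 25.3 FPKM in young and 31.2, 31.0 and 37.8 in old (0.34, SE 0.090, limma adjusted p = 0.193). Nceh1, which frees cholesterol from its esters, had 54.4 ± 4.16 and 67.1 ± 3.39 FPKM (0.30, limma adjusted p = 0.193). Scarb1, the high-density lipoprotein receptor, was the negative member, named after its value was seen, with 14.7 ± 2.0 and 11.1 ± 1.08 FPKM (-0.37, limma adjusted p = 0.217). Without each library in turn the median was 0.235 to 0.309. This list was chosen with higher values of Npc1 and other lysosomal genes in old already known, and the difference between it and the synthesis genes was not tested. The 7 LXR factors and targets had a median of 0.03 with 0 passing in limma and 0 at an unadjusted p under 0.05. Its sign rested on single libraries, since the median was -0.03 without old replicate 3, -0.004 without young replicate 3 and 0.10 without old replicate 1, and it was -0.03 with TPM. Abca1, the cholesterol exporter, had 84.0 ± 9.79 and 93.6 ± 8.51 FPKM (0.16, limma adjusted p = 0.548).

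The sort and the other cell types were checked by marker lists. Itgam, which encodes CD11b, had 34.3 to 36.9 FPKM in young and 41.9 to 50.9 in old, and Adgre1, which encodes F4/80, had 347 to 382 and 430.2 to 476 FPKM. Ly6c2 was low at 1.31 to 3.20 and 2.46 to 7.68 FPKM. Its log2 change was 0.97 (SE 0.379, limma adjusted p = 0.305), with overlapping groups. The macrophage markers Cd68 (956.5 ± 145.6 and 1345 ± 136.3 FPKM) and Fcgr1 (149.9 ± 22.4 and 192.2 ± 5.41) also had higher old values with no overlap. The groups overlapped for Csf1r (453.9 ± 70.9 and 385.1 ± 23.4 FPKM), Lyz2 (10364 ± 909.7 and 9916 ± 1960) and Mertk (67.3 ± 6.95 and 67.7 ± 9.55). In limma 0 of the 8 tested markers passed. Before adjustment, 5 had a limma p under 0.05, all higher, beside 8.84% of all tested genes in that direction. These 5 were Itgam, Adgre1, Cd68, Fcgr1 and Ly6c2. The 8 muscle markers summed to 15.2 to 18.7 FPKM per library in young and 6.08 to 9.17 in old. All 5 tested were lower at a limma unadjusted p under 0.05, beside 6.18% of all tested genes, and Actc1 passed. Actc1 had 1.91 ± 0.197 and 0.125 ± 0.0839 FPKM (-1.37, limma adjusted p = 0.0444), with only 1 to 6 recovered fragments per old library. It did not pass with a pseudocount of 0.1, without the minimum or with a replicate block, where 0 of all genes passed. The same held without any single library other than young replicate 1. The 6 fibroblast markers summed to 2.96 to 5.71 and 1.07 to 2.31. Of the 10 proliferation genes all were negative in old with 0 passing in limma. Before adjustment, 1 had a limma p under 0.05, beside 6.18% of all tested genes in the lower direction. The summed level of the 10 was 71.0 to 99.8 FPKM in young and 44.5 to 93.3 in old. Their median change was -0.30, or -0.08 with 2 positive without old replicate 3, the library with the lowest sum. It was -0.19 without young replicate 1, -0.48 without young replicate 3 and -0.55 without old replicate 2. The 6 endothelial markers summed to 6.19 to 8.31 and 4.57 to 9.38 FPKM. Kdr held most of the sum in old replicates 1 and 3. Of the 3 tested, 2 were negative and 1 positive in old, with 0 passing in limma. Pecam1 was lower in old with no overlap (-0.53, limma adjusted p = 0.104). It alone of the 3 had a limma unadjusted p under 0.05, beside 6.18% of all tested genes in the lower direction. Kdr was the positive one, with overlapping groups (0.35, limma adjusted p = 0.681). The 6 neutrophil markers summed to 33.4 to 40.8 and 37.7 to 49.7 FPKM, of which Csf3r held most. The 6 Schwann cell markers summed to 7.64 to 8.57 and 7.49 to 7.98, of which Mbp held most. The 6 lymphocyte markers summed to 0.721 to 1.17 and 0.551 to 1.09 FPKM, of which Cd79a held most. The neutrophil marker Ly6g and the lymphocyte marker Cd3e were at 0 in all libraries. The part of these cells, and of proliferation, in the values of the synthesis genes was not tested.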

How the data were processed

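A micro-scale column kit was used to extract RNA for the 6 macrophage libraries, per the labels' protocols. The authors deposited 1 table of FPKM per gene. Per the submitters' processing notes, the build was GRCm38.p6. Aligner, counter, strandedness and annotation: not given in the sources used here, so fragments of overlapping genes cannot be assigned. Identifiers were matched to GENCODE M21 on GRCm38 (98.99% of 54966 features), which gave coordinates and exon lengths.

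Recovered fragments were FPKM times exon length over the value of a single fragment. They were whole within 0.02, for multiples below 200, in 97.5% to 97.6% of values per library. Fragments were read without molecular identifiers, so they bound counting error only.

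Old was compared with young on log2(FPKM + 1) using limma 3.58.1 (R 4.3.3) with a mean-variance trend and no replicate block. Genes averaging 1 FPKM or more were tested. P-values are two-sided. The fit was tested on simulated data. Ratios used exact permutation tests in scipy 1.17.1. Alternatives were a pseudocount of 0.1, no minimum, a minimum of 5 FPKM, median-of-ratios scaling, TPM, no trend, array weights, a replicate block, limma voom on recovered fragments, and leaving out each library. Near-identical copies were sought with blastn among GENCODE transcripts at 95% identity over 200 bases.

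The members and lists were chosen with earlier results of these data known. The rule named all members, up to 3 genes of smallest p of each further list, and markers at 0 or of highest level. Scarb1, Actc1, Pecam1 and several macrophage and gate genes stand outside it. The order of libraries was chosen for description after its values were seen. Python 3.11.15 with pandas 2.3.3, numpy 2.4.6 and matplotlib 3.10.9 made the tables and figures.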

Additional observations from a re-analysis of the deposited data

How the results depend on the processing

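By limma, 0 members passed under all 15 alternatives, and 13 of the 24 tested members kept their sign wherever they were fitted. With a minimum of 5 FPKM 11 members were fitted. The median change of the members stayed between -0.04 and 0.05. The other 11 members, all with changes within 0.189 of 0, took the opposite sign under some setting. With array weights these were Stard4 (0.031), Srebf1 (0.008) and Insig1 (0.029), with median-of-ratios scaling Ebp (-0.008), and with TPM Ebp (-0.053), Acly (-0.025) and Insig2 (-0.002). Leaving out a library gave -0.354 to 0.046 for Scd2, -0.085 to 0.001 for Srebf1, -0.142 to 0.045 for Idi1, -0.045 to 0.042 for Ebp, -0.002 to 0.072 for Acly, -0.142 to 0.060 for Insig1, -0.075 to 0.138 for Srebf2, -0.029 to 0.149 for Tm7sf2 and -0.301 to 0.012 for Cyp51. The same gave ratios of -0.219 to 0.018 for Insig1 to Insig2 and -0.220 to 0.076 for Srebf1 to Srebf2. Over all genes limma called 4, and 0 with the pseudocount of 0.1, without the minimum or with the minimum of 5 FPKM, 50 with array weights and 41 by voom. Leaving out a library gave 0 to 15, the 15 without young replicate 1, and no other library left out gave any. The cause was not tested. With the replicate number as a block 0 genes passed, and the median change of the members was 0.022. Same-numbered libraries correlated at 0.032, 0.054 and 0.042 in their deviations from the group means, so the numbers were not taken as pairs, although each library correlated best with its own number. Depth limits Fdps and Scd1, with at most 15 fragments per library.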
